A study of Mus musculus with 7 samples.

Results

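The mitochondrial chaperones and proteases described here are 10 genes that were listed by name, *Hspd1*, *Hspe1*, *Hspa9*, *Dnaja3*, *Trap1*, *Lonp1*, *Clpp*, *Clpx*, *Yme1l1* and *Afg3l2*. They were chosen as genes of the mitochondrial unfolded protein response. The rule that names them uses no measured value, but they and the lists below were chosen with earlier results of these data known. All 10 had a row in the table of read counts, which holds 14819 rows, and all 10 were among the 14779 genes tested. RNA was sequenced from cultured primary hepatocytes, the main cell type of the liver, of male WT mice (n = 4) and of male *Wdr6* whole-body knockout (WDR6-WKO) mice (n = 3), which lack exon 2 of *Wdr6* after CRISPR–Cas9 deletion in every tissue. Both groups of hepatocytes were isolated by collagenase perfusion, incubated overnight in medium with serum and given no treatment. The methods give an age only as a general default for mice and none for these donors in particular, and the date of each isolation was not given in the sources used here. The replicates were described as independent experiments, so p-values refer to the spread between these cultures. Below, levels are means ± s.d. over the 4 WT or the 3 WDR6-WKO libraries in CPM, counts scaled with the TMM method to a common library size, and values of single libraries follow the order of the replicate numbers. Differences are log2 fold changes of WDR6-WKO against WT with their standard error (s.e.), and adjusted p-values come from edgeR unless another test is named.

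Most proteins of mitochondria are made in the cytosol, imported unfolded, and folded or degraded inside the organelle. In the matrix, the HSP70 protein encoded by *Hspa9* pulls in and binds incoming chains, the chaperonin HSP60 (*Hspd1*) with its lid HSP10 (*Hspe1*) encloses them for folding, and the proteases LONP1 and CLPP–CLPX degrade chains that fail to fold. *Yme1l1* and *Afg3l2* encode AAA proteases of the inner membrane, which face the intermembrane space and the matrix, respectively. When unfolded proteins build up in mitochondria, cells can raise the RNA of these genes, a programme called the mitochondrial unfolded protein response. Hepatocytes are rich in mitochondria, which carry out the oxidation of fatty acids and the first steps of the urea cycle.

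The libraries held between 17816913 and 23668940 counted reads. The targeted gene *Wdr6* fell from 44.0 ± 4.03 to 2.38 ± 0.179 CPM. WDR6-WKO replicate 3 stood apart from the other WDR6-WKO libraries, with a chi-square per gene of 14.3 against replicate 1 and 15.9 against replicate 2, where the other pairs of libraries of a genotype gave 3.80 to 8.23. Results that rest on it are therefore given without it as well. Of 8 hepatocyte markers none was at 0. The summed level of these markers was 13496 to 16078 CPM in the WT and 12461 to 14393 CPM in the WDR6-WKO libraries, with 3 of them, *Cps1*, *Apoa1* and *Hnf4a*, called lower. At an unadjusted p under 0.05, 6 of the 8 were lower and 0 higher. None of the 8 estimates was above 0, with a median log2 fold change of -0.23. Of 12 markers of Kupffer cells, the macrophages of the liver, *Lyz2*, *C1qc* and *C1qb* were higher and none was lower (8 and 1 at an unadjusted p under 0.05), and their summed level was 860 to 939 CPM in the WT and 993 to 1191 CPM in the WDR6-WKO libraries. Of 5 cholangiocyte markers, *Spp1* and *Sox9* were higher, the 5 summing to 3068–3360 CPM in WT and 3713–4306 CPM in WDR6-WKO, while *Krt7* (3.10 CPM in WT) and *Epcam* (0.849 CPM) were near the lower end of the table. Only 3 of the 5 log2 fold changes were above 0, in a range of -0.10 to 0.34. Of 8 stellate cell markers *Dcn* was higher (sums of 612–671 and 650–711 CPM). None of 8 sinusoidal endothelial markers passed, also not at an unadjusted p under 0.05 or with DESeq2 (293–334 and 277–329 CPM). None of the marker genes was at 0 on average. The part of these cell types in the results that follow was not tested, and fewer cells of a type and less RNA per cell cannot be told apart in bulk RNA.

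A trend with transcript length also ran through the whole comparison. Among the 1510 genes with a transcript under 1 kb the median log2 fold change was 0.12, and among the 2572 genes over 5 kb it was -0.07. Relative to the WT mean, the median of the short genes stood at 0.10 and 0.15 in WDR6-WKO replicates 1 and 2 and at 0.01 in replicate 3, on the log2 scale. The transcripts of *Hspe1* (774 bases) and *Clpp* (983 bases) belong to this short class, and those of the other 8 genes are between 2320 and 4707 bases long. Where a fit corrected for transcript length changed a call or a count of calls, its value is given beside it.

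The promoter windows of RefSeq (GRCm38.p6, 250 bases before to 50 bases after an annotated start) were matched by symbol, and 8 of the 10 genes had at least 1 window, 9 windows in all. *Hspa9* and *Afg3l2* had no window, so their promoters were not searched for motifs. The windows of *Hspe1* and of the *Clpp* and *Clpx* pair are shown, because the first overlaps a window of *Hspd1* and the other pair of partners had estimates of opposite sign. *Hspd1* and *Hspe1* lie head to head on chromosome 1 (GRCm38), *Hspd1* on the minus strand from 55077835 to 55088243 and *Hspe1* on the plus strand from 55088132 to 55091307, so that their 5′ ends overlap by 112 bases. Of the *Hspe1* window, at chr1:55087898-55088197 on the plus strand, 285 bases are the reverse complement of an *Hspd1* window at chr1:55087883-55088182. That window belongs to an *Hspd1* start inside the gene span. The window at the *Hspd1* 5′ end given above, chr1:55088194-55088493, shares only 4 bases with the *Hspe1* window. *Clpp*, at chr17:56990305-56996188 on the plus strand, has 6 exons, and its window is chr17:56990014-56990313. *Clpx*, at chr9:65294260-65330658 on the plus strand, has 14 exons, and its window is chr9:65294010-65294309. In the sequences, capitals mark matches on either strand to the heat shock element core GAANNTTC, to the NRF1 core GCGCATGC or to the NF-Y motif CCAAT.
Hspe1: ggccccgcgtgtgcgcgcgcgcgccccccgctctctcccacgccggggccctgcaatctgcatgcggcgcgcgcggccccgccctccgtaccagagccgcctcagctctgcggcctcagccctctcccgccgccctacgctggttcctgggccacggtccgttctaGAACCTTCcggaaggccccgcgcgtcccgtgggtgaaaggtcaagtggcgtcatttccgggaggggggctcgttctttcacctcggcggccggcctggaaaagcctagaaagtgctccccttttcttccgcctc
Clpp: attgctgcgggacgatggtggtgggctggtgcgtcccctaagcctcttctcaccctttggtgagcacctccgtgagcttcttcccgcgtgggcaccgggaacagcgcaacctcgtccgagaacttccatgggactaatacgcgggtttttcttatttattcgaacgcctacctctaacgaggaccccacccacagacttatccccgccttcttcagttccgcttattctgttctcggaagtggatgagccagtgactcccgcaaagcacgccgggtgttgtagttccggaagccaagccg
Clpx: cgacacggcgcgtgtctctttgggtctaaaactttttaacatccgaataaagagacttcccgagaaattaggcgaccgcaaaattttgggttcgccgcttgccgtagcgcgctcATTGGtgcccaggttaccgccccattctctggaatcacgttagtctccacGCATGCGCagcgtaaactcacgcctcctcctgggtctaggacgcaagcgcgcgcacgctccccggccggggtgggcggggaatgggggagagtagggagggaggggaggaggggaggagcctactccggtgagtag

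The capitals in the *Hspe1* window begin 84 bases before its start, and the same bases lie 139 bases before the *Hspd1* start of the overlapping window. They lie downstream of the *Hspd1* 5′ end given above. The heat shock element core was found in 2 of the 9 windows, that of *Hspe1* and the overlapping one of *Hspd1*. It was in 7.86% of all 32851 RefSeq windows and in 5.84% of the 13551 windows of genes in the count table. *Clpx* held the NRF1 core 86 bases before its start, a motif present in 2.71% of all windows and 4.86% of those of table genes. The cAMP response element TGACGTCA lay 47 bases before the start of *Trap1* and was in 1.79% of all windows and 2.89% of those of table genes. CCAAT was found in 4 of the 9 windows, for *Hspd1*, *Yme1l1*, *Clpx* and *Dnaja3*, with 37.4% of all windows and of those of table genes holding it. The core of the amino acid response element, TGATGNAA, which ATF4 can bind, was in none of the 9 windows, in 3.97% of all and in 2.33% of those of table genes. In these windows no match overlapped another. The *Clpp* and *Lonp1* windows held none of the motifs searched, and *Hspa9* and *Afg3l2* had no window to search.

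Per kb of transcript, the WT level spanned 12.9-fold from *Clpx* to *Hspd1*. *Hspd1* stood highest at 258 ± 6.32 CPM per kb, followed by *Hspa9* at 225 ± 3.37. *Lonp1*, the main matrix protease, was at 111 ± 5.63 CPM per kb and *Hspe1* at 97.9 ± 1.99, so that the RNA of the lid was less abundant than that of the HSP60 ring it covers. The HSP90 homologue *Trap1* was at 52.9 ± 1.14 CPM per kb and the inner membrane protease *Afg3l2* at 34.0 ± 1.60. *Yme1l1*, at 29.9 ± 1.59, and *Clpp*, at 27.8 ± 1.61 CPM per kb, overlapped in the WT libraries and were the only neighbours in the order that did. *Dnaja3*, the J-domain partner of mitochondrial HSP70, was at 23.4 ± 0.637, and *Clpx*, the unfoldase that feeds CLPP, ranged from 19.0 to 20.6 CPM per kb. In WDR6-WKO hepatocytes *Hspa9*, at 269 ± 15.9 CPM per kb, stood above *Hspd1*, at 257 ± 5.86, and *Clpp*, at 34.0 ± 3.24, above *Yme1l1*, at 28.0 ± 2.70. The libraries of *Hspa9* and *Hspd1* overlapped in WDR6-WKO, as did those of *Lonp1* and *Hspe1*, of *Afg3l2* and *Clpp*, of *Clpp* and *Yme1l1*, and of *Yme1l1* and *Dnaja3*. *Hspd1* and *Hspe1* share 44.8% of the 50-base sequences of their transcripts with other annotated genes, processed pseudogenes among them, and their levels are uncertain to that extent. For the other 8 genes the share was at most 4.10%.

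**Figure D1:**
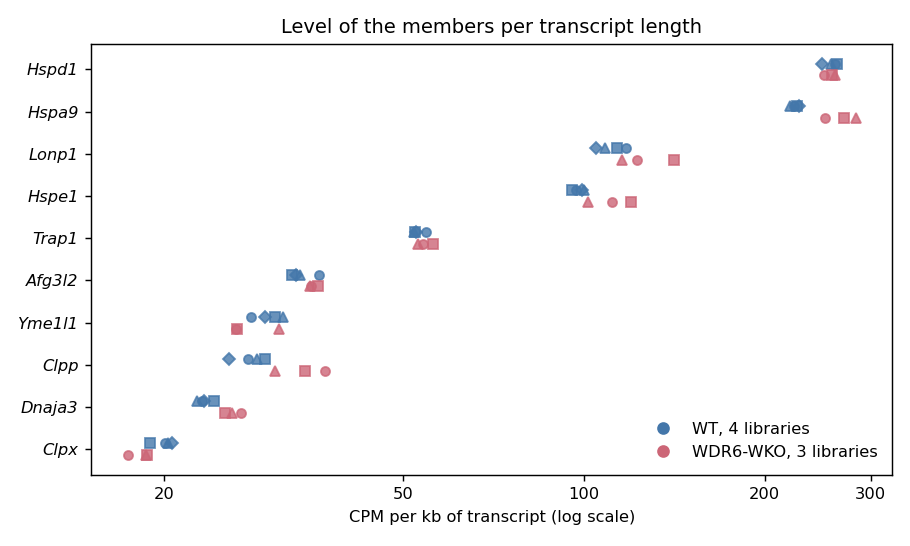
Level of each of the 10 genes in CPM per kb of transcript (x axis, log scale), 1 point per library, with WT in blue and WDR6-WKO in red and marker shapes for the replicate numbers. *Hspd1* and *Hspa9* stand above the other 8 genes in all 7 libraries, *Clpx* stands lowest in both groups, and the red points of *Hspa9* and *Clpp* lie to the right of the blue ones.

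Which of these genes differed in hepatocytes without WDR6 was asked with the quasi-likelihood test of edgeR, its p-values adjusted over all genes tested by the Benjamini-Hochberg method. *Hspa9* and *Clpp* were higher in WDR6-WKO hepatocytes (adjusted p under 0.05), and none of the 10 was lower. At an unadjusted p under 0.05 there were 5 higher and 1 lower, *Clpx*. The share of all genes at that unadjusted threshold was not determined, for these genes or for the other lists. DESeq2 and limma-voom each called 2 of the 10 higher and 0 lower, where they called 1989 and 1840 of all genes. All estimates were small, from -0.13 for *Clpx* to 0.30 for *Clpp*, with a median of 0.11 beside 0.01 over all genes tested. The 2 of 10 called by edgeR stand beside 12.8% of all genes tested, 6.65% called higher and 6.18% called lower. The groups did not overlap in CPM for 5 of the 10 genes, *Hspe1*, *Hspa9*, *Dnaja3*, *Clpp* and *Clpx*, and for 23.5% of all genes. None of the 10 met the thresholds of the study's methods, a log2 fold change of 0.35 or more in size with an unadjusted p under 0.05, which 10.4% of all genes met. Without WDR6-WKO replicate 3 the test called 5 of the 10 higher (*Hspe1*, *Hspa9*, *Dnaja3*, *Lonp1* and *Clpp*) and *Yme1l1* lower, and 4233 in place of 1897 genes overall. Without WT replicate 1, 3 or 4 or WDR6-WKO replicate 1 or 2, only *Hspa9* was called. Scaling by library size alone called the same 5 genes higher.

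**Figure D2:**
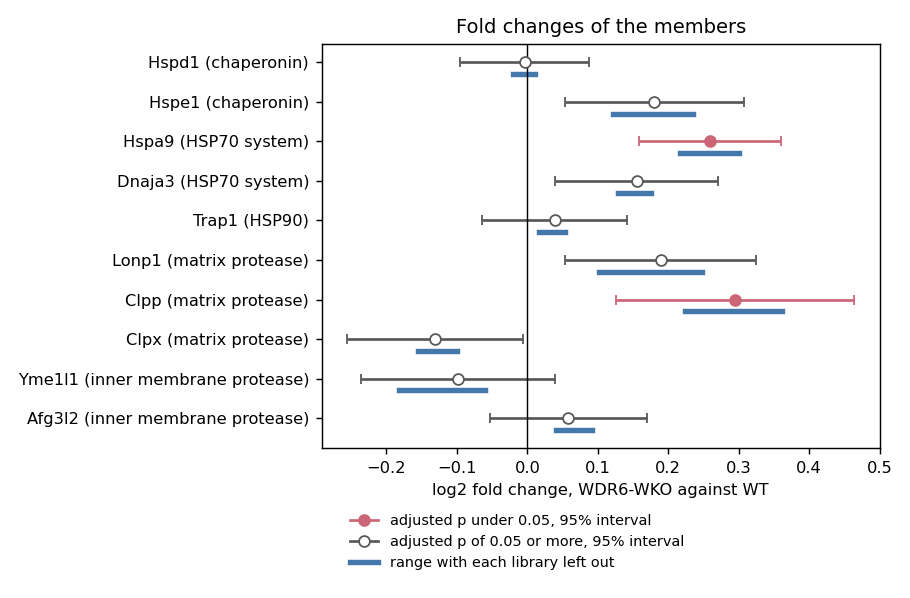
Log2 fold change of WDR6-WKO against WT for the 10 genes (x axis) with the 95% interval of the edgeR fit, filled red where the adjusted p was under 0.05, and below each in blue the range of the estimate when each of the 7 libraries was left out in turn. *Hspa9* (0.26) and *Clpp* (0.30) are the filled points, *Hspd1* lies at 0, and *Clpx* (-0.13) and *Yme1l1* (-0.10) lie to the left.

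The chaperonin genes *Hspd1* and *Hspe1*, which lie head to head, had different estimates. *Hspd1* had 634, 638, 623 and 604 CPM in the WT libraries and 607, 628 and 635 CPM in the WDR6-WKO libraries. These ranges overlapped, and the log2 fold change was -0.00 (95% interval -0.10 to 0.09, adjusted p = 0.969). The sign of this value changed, to 0.023, with library sizes alone and, to 0.010, with the correction for GC content. *Hspe1* had 75.1, 74.0, 77.3 and 76.8 CPM in the WT libraries, against 86.3, 92.6 and 78.6 CPM without WDR6. Each WDR6-WKO library was above every WT library, with replicate 3 only just so. The difference of 0.18 (s.e. 0.06) did not pass the test (adjusted p = 0.0606). It was 0.24 without WDR6-WKO replicate 3 (adjusted p = 0.000791) and 0.12 without WDR6-WKO replicate 2 (adjusted p = 0.276). After the correction for transcript length it was 0.05 (adjusted p = 0.551). The pseudogene *Hspd1-ps3*, which has a row of its own in the table, had 13.3 ± 1.10 CPM in WT and 14.5 ± 5.22 CPM in WDR6-WKO.

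*Hspa9*, the mitochondrial HSP70 also known as mortalin, kept an adjusted p under 0.05 in every alternative fit, which held for no other of the 10. Its transcript of 3049 bases has 17 exons. The WT libraries had 681, 689, 673 and 696 CPM, with a mean of 685 ± 10.3. The WDR6-WKO libraries had 769, 826 and 865 CPM, all above the WT range. This gave a log2 fold change of 0.26 (s.e. 0.05, adjusted p = 0.00186), an increase of 19.7%. Without WDR6-WKO replicate 3, the highest of these libraries, the estimate was 0.22 (adjusted p = 7.67e-05). The adjusted p lay between 3.80e-05 and 0.00359 over the other scalings, filters, tests and corrections and reached at most 0.0121 with a library left out. The correction for transcript length gave 0.27 on the log2 scale. *Dnaja3*, at chr16:4639989-4707695 on the plus strand, encodes the co-chaperone that directs client proteins to mitochondrial HSP70. It had 61.4, 64.2, 60.2 and 61.7 CPM in the WT libraries, compared with 71.1, 66.9 and 68.7 CPM in WDR6-WKO. The ranges did not overlap, but the difference of 0.16 (s.e. 0.05) missed the threshold (adjusted p = 0.0726). Without WDR6-WKO replicate 3 the difference was 0.16 (adjusted p = 0.0323), and without WDR6-WKO replicate 1 it was 0.13 (adjusted p = 0.237). *Trap1*, the mitochondrial HSP90 at chr16:4039971-4077827 on the minus strand, had 121 to 127 CPM in the WT and 123 to 130 CPM in the WDR6-WKO libraries. Its estimate was 0.04 (95% interval -0.06 to 0.14), and 54 bases of its transcript overlap an exon of *Dnase1* on the other strand.

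The subunits of the CLPP–CLPX protease had estimates of opposite sign. *Clpp*, which encodes the proteolytic subunit, had 27.1, 28.9, 28.0 and 25.2 CPM in the WT libraries, from 502 to 552 counted reads. In the WDR6-WKO libraries it had 36.4, 33.7 and 30.1 CPM, above the whole WT range. The difference was 0.30 (s.e. 0.08, adjusted p = 0.0231), an increase of 22.7%. This call was lost in 5 of the 7 fits with a library left out, those without WT replicate 1, 3 or 4 or WDR6-WKO replicate 1 or 2, where the adjusted p was up to 0.143. Without WDR6-WKO replicate 3 the estimate was 0.36 (adjusted p = 0.000255), and after the correction for transcript length it was 0.17 (adjusted p = 0.139). *Clpx*, which encodes the ATP-driven unfoldase, had 58.0, 54.7, 58.7 and 59.5 CPM in WT and 50.2, 54.1 and 53.9 CPM in WDR6-WKO. Each WDR6-WKO library was below every WT library. The difference of -0.13 (s.e. 0.06) did not pass the test (adjusted p = 0.160).

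*Lonp1*, at chr17:56614297-56626887 on the minus strand, encodes the other soluble protease of the matrix, which degrades oxidised and misfolded proteins. Its level was 346, 335, 320 and 309 CPM in the WT libraries. The WDR6-WKO libraries had 362, 417 and 341 CPM, so that replicate 3 lay within the WT range and replicate 2 was the highest of all. The difference was 0.19 (s.e. 0.06, adjusted p = 0.0647). Leaving out WDR6-WKO replicate 2 gave 0.10 (adjusted p = 0.336), and leaving out WDR6-WKO replicate 3 gave 0.25 (adjusted p = 0.00177). After the correction for transcript length the estimate was 0.18 (adjusted p = 0.0638).

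The AAA proteases of the inner membrane did not pass the test. *Yme1l1*, at chr2:23156369-23199260 on the plus strand, encodes the i-AAA protease, which also cleaves the fusion protein OPA1. It had 131, 144, 149 and 139 CPM in WT, and 124, 125 and 146 CPM in WDR6-WKO. Replicates 1 and 2 of WDR6-WKO were below all WT libraries and replicate 3 was within their range. The difference was -0.10 (95% interval -0.24 to 0.04, adjusted p = 0.346), and without WDR6-WKO replicate 3 it was -0.18 (adjusted p = 0.00538). Without WDR6-WKO replicate 1 or 2 it was -0.06 in each fit (adjusted p = 0.690 and 0.693). *Afg3l2*, a subunit of the m-AAA protease with a transcript of 3094 bases in 17 exons, had 101 to 112 CPM in the WT and 108 to 112 CPM in the WDR6-WKO libraries. Its estimate was 0.06 (95% interval -0.05 to 0.17, adjusted p = 0.510).

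**Figure D3:**
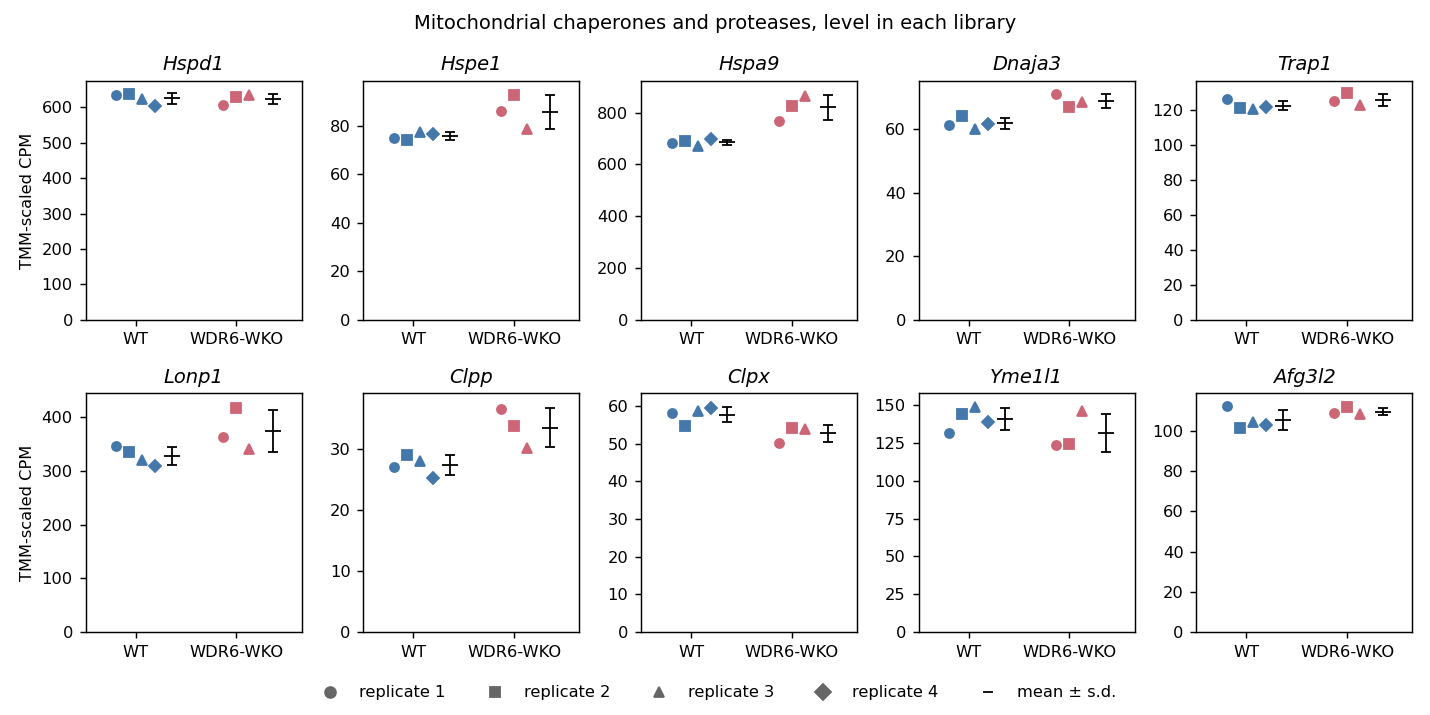
TMM-scaled CPM (y axes, each from 0) of the 10 genes in each library of WT (blue, n = 4) and WDR6-WKO (red, n = 3), with black bars for the mean ± s.d. and marker shapes for the replicate numbers. The groups do not overlap for *Hspe1*, *Hspa9*, *Dnaja3*, *Clpp* and *Clpx*. WDR6-WKO replicate 3 (red triangle) is the WDR6-WKO library nearest to the WT mean for *Hspe1*, *Trap1*, *Lonp1*, *Clpp*, *Yme1l1* and *Afg3l2*. For *Hspa9* it is the farthest.

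Ratios between genes of this list within a library do not depend on the scaling between libraries. They were compared for 5 pairs, partners or separate proteases, by their mean log2 ratio with a two-sided exact permutation test. With 4 and 3 libraries the smallest p it can give is 0.0286. The ratio of *Clpp* to *Clpx* counts was 0.467, 0.529, 0.478 and 0.424 in the WT libraries, against 0.726, 0.624 and 0.559 in WDR6-WKO. Every WDR6-WKO library was above every WT library, a difference of 0.42 on the log2 scale (exact p = 0.0286, adjusted over the 5 ratios 0.143). Without WDR6-WKO replicate 3 the difference was 0.51. The transcripts of these partners differ in length, 983 against 2885 bases, along the trend given above. The ratio of *Hspe1* to *Hspd1* was 0.121 ± 0.00514 in WT and 0.138 ± 0.0124 in WDR6-WKO (exact p = 0.0857, adjusted 0.214), with replicate 3 of WDR6-WKO, at 0.124, inside the WT range of 0.116 to 0.127. The *Dnaja3* to *Hspa9* ratio was 0.0903 ± 0.00199 in WT and 0.0843 ± 0.00711 in WDR6-WKO (exact p = 0.200, adjusted 0.250). For *Afg3l2* to *Yme1l1* the values were 0.749 ± 0.0725 and 0.837 ± 0.0852 (exact p = 0.200, adjusted 0.250). *Lonp1* and *Clpp* had a ratio of 12.0 ± 0.625 in WT and 11.2 ± 1.22 in WDR6-WKO (exact p = 0.343, adjusted 0.343). None of the 5 ratios passed the threshold after adjustment. The *Clpp* to *Clpx* ratio had the smallest exact p possible and could not have passed this adjustment by itself. For that ratio the adjusted value therefore decides nothing.

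**Figure D4:**
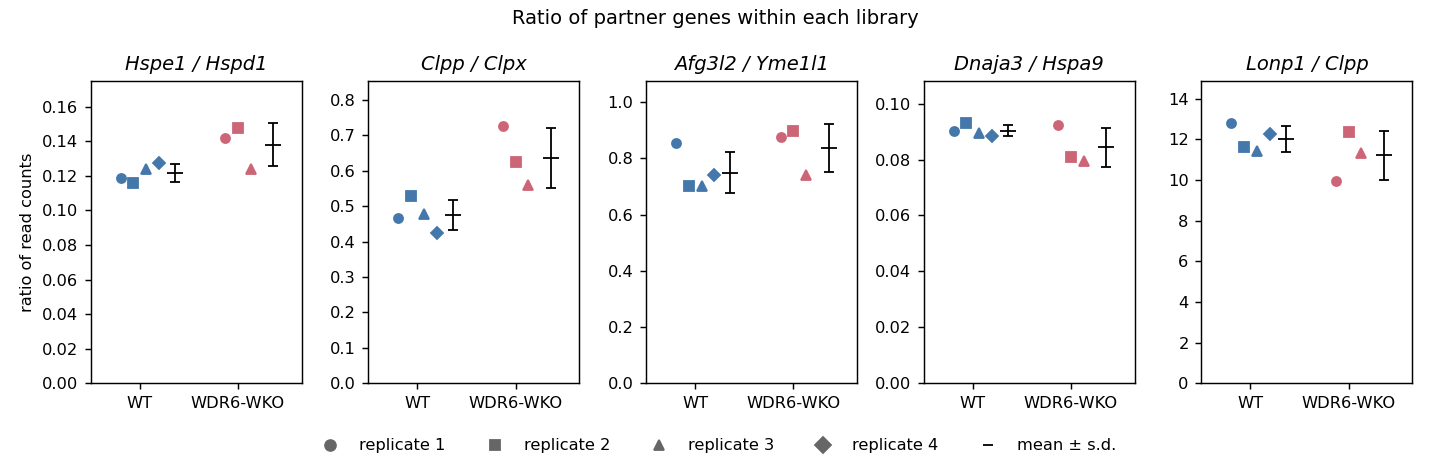
Ratio of the read counts of 5 pairs of genes (y axes, each from 0) in each library of WT (blue, n = 4) and WDR6-WKO (red, n = 3), with the mean ± s.d. in black. The *Clpp* to *Clpx* ratio is the only one whose groups do not overlap, 0.424 to 0.529 in WT against 0.559 to 0.726 in WDR6-WKO.

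The other genes of the pathway were listed by role. Of 9 further chaperones and co-chaperones of the matrix, *Grpel1*, the nucleotide exchange factor of mitochondrial HSP70, was higher, at 83.7 ± 3.36 CPM in WT and 96.0 ± 8.01 CPM in WDR6-WKO (log2 fold change 0.20, adjusted p = 0.0466). The other 8 did not pass, and the median of the list was 0.13. Without any single WT library or WDR6-WKO replicate 1 or 2 none of the 9 was called, and without WDR6-WKO replicate 3 there were 4. With the correction for transcript length 2 of the 9 were called. None of 16 further proteases and their membrane scaffolds passed in either direction with edgeR, DESeq2 or limma-voom, and 1 was higher at an unadjusted p under 0.05 (median 0.05). *Immp2l*, a subunit of the inner membrane peptidase, had the largest estimate of them at -0.26 (adjusted p = 0.412). Without WDR6-WKO replicate 3 the test called 4 of the 16 higher and 1 lower.

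Of 22 genes of mitochondrial protein import 21 were tested, and 5 were higher and none lower with edgeR and with DESeq2, or 8 and 0 at an unadjusted p under 0.05, with a median of 0.18. *Tomm7*, *Tomm5* and *Tomm20* encode subunits of the outer membrane translocase, and *Timm10* and *Timm22* belong to the route for carrier proteins of the inner membrane. Their log2 fold changes were 1.34 for *Tomm7*, 0.47 for *Timm10*, 0.32 for *Tomm5*, 0.26 for *Timm22* and 0.20 for *Tomm20*. *Tomm7* was a low gene, at 5.86 ± 0.674 CPM in WT and 14.7 ± 6.12 CPM in WDR6-WKO, where replicate 3 had 7.71 CPM. The import count moved with single libraries. Without WT replicate 1, 2, 3 or 4 it was 2, 3, 1 and 0, and without WDR6-WKO replicate 1, 2 or 3 it was 1, 0 and 13. With the correction for transcript length it was 4.

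Of 11 genes of mitochondrial stress signalling 10 were tested, and 5 were higher and none lower, also at an unadjusted p under 0.05 or with DESeq2 (median 0.29). *Atf4*, the transcription factor of the integrated stress response, went from 184 ± 8.68 to 284 ± 23.0 CPM, and *Ddit3*, which encodes CHOP, from 9.33 ± 1.62 to 31.9 ± 8.94 CPM. *Atf5*, a transcription factor linked to the mitochondrial unfolded protein response in mammals, was higher by 0.37 (adjusted p = 0.00294). *Gdf15*, a hormone secreted under mitochondrial stress, was higher by 0.41 and *Ubl5*, a ubiquitin-like cofactor, by 0.40. *Dele1* (0.04) and *Eif2ak1* (-0.08), which relay mitochondrial stress to the cytosol, and *Hsf1* (0.10), the heat shock factor, did not pass. With each library left out in turn 4 or 5 of the 10 were called.

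Of 13 genes of mitochondrial biogenesis and mass the outer membrane channel *Vdac2* was higher (log2 fold change 0.15, adjusted p = 0.0315) and none was lower, or 1, *Tfam*, at an unadjusted p under 0.05. None was called higher without any single WT library or WDR6-WKO replicate 1 or 2, and without WDR6-WKO replicate 3 there were 3 higher and 1 lower. With the correction for transcript length 0 of the 13 were called. The citrate synthase gene *Cs*, often used as a measure of mitochondrial mass, had 216 ± 3.31 CPM in WT and 220.2 ± 1.18 CPM in WDR6-WKO (0.03, adjusted p = 0.707). *Tfam*, which encodes the packaging factor of mitochondrial DNA, was at -0.14 (adjusted p = 0.145). The 12 mRNAs of the mitochondrial genome with a row in the table summed to 29859–33165 CPM in WT and 29512–36102 CPM in WDR6-WKO. None of them passed with edgeR, DESeq2 or limma-voom, and 1 was higher at an unadjusted p under 0.05. The largest estimate among them, -0.96 (s.e. 0.61, adjusted p = 0.381), was that of *mt-Nd4l*, a low row at 30.1 ± 18.2 CPM in WT and 15.4 ± 5.28 CPM in WDR6-WKO. The summed level of the 10 chaperone and protease genes, for comparison, was 2195 to 2252 CPM in the WT and 2339.6 to 2484 CPM in the WDR6-WKO libraries.

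**Figure D5:**
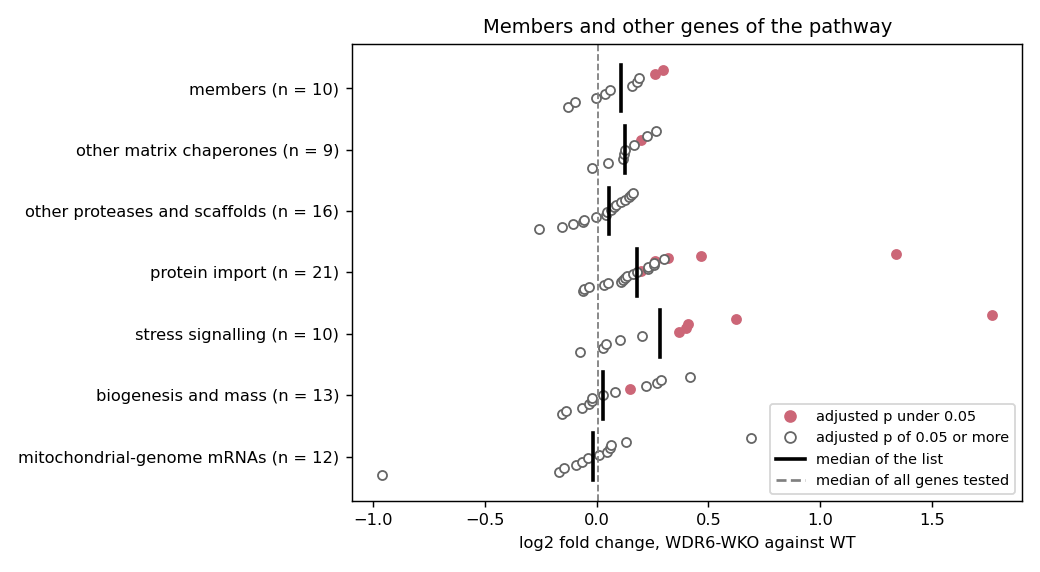
Log2 fold change of WDR6-WKO against WT (x axis) for the 10 genes and for the other genes of the pathway by role, 1 point per gene, filled red where the adjusted p was under 0.05, with a black bar for the median of each list and a dashed line for the median of all genes tested. The stress signalling genes reach farthest to the right, with 5 of 10 filled, while the 16 further proteases and the 12 mRNAs of the mitochondrial genome have no filled point.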

How the data were processed

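RNA of 4 WT and 3 WDR6-WKO cultures was made into NEBNext Ultra libraries and sequenced on an Illumina HiSeq platform. The authors aligned the reads to mm10 with Bowtie2 2.2.3, as given in the submitters' processing notes, and deposited raw read counts per gene symbol, 1 column per library. The counting tool, annotation and strand setting are not given in the sources used here. Of 14819 rows, 21 carry spreadsheet dates in place of symbols. They were tested but not named.

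Counts were filtered with filterByExpr (14779 genes kept), TMM-scaled and tested with the robust quasi-likelihood test of edgeR 4.0.16 in R 4.3.3, with genotype as the only term and calls at an adjusted p under 0.05. Standard errors and 95% intervals came from the F statistic. The biological coefficient of variation was 7.40%, at library totals of 17816913 to 23668940 reads. The steps were tested on simulated data. Alternatives were DESeq2 1.42.0, limma-voom (limma 3.58.1), other scalings and filters, the replicate number as a block, each library left out, and the study's thresholds. Corrections for transcript length and GC content (offsets in 20 bins, 99.6% of identifiers with a length) and the list of mitochondrial-genome mRNAs were added after seeing the data. Transcript lengths, coordinates and shared 50-base sequences came from GENCODE M21 (GRCm38) and promoters from RefSeq (GRCm38.p6).

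The 10 genes and the lists were chosen with earlier results of these data known. Named were the 10 genes, *Wdr6*, from each list of pathway genes the called genes, at most 4 by absolute log2 fold change in each direction, or the largest estimate where none was called, and from each list of cell type markers at most 4 called genes. *Tomm20*, *Atf5*, *Dele1*, *Eif2ak1*, *Hsf1*, *Cs* and *Tfam*, as well as *Hspd1-ps3* and the low markers *Krt7* and *Epcam*, were named after their values were seen.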

Additional observations from a re-analysis of the deposited data

Results flagged for a closer look

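In WT hepatocytes the level of *Tfam* in replicate 2, 50.4 CPM, stood away from the other 3 libraries, at 48.0, 48.2 and 48.0 CPM. The gap to its neighbour was 0.921 of the range of the 4 libraries on the log2 scale, above Dixon's critical value at 95%. Of the 36 groups of 4 libraries examined in this way, 1 was past it, and chance alone passes about 0.05 of such groups.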

How the results depend on the processing

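Of the 10 genes, *Hspa9* kept an adjusted p under 0.05 in every alternative fit. With library sizes alone, *Dnaja3* (0.18), *Hspe1* (0.21) and *Lonp1* (0.22) passed the threshold, as they did with the GC correction, at 0.16, 0.16 and 0.15. *Hspd1* changed sign to 0.023 and 0.0105 in these fits. *Clpp* lost its call with the replicate block (0.25) and with the length correction (0.17). Of the 10, the count called higher was then 5 with library sizes alone, 5 with the GC correction, 1 with the replicate block, 1 with the length correction and 0 by the study's thresholds. Over all genes, the count called lower was 1452 with the GC correction and 583 by the study's thresholds, and library sizes alone made 63.5% of calls higher, against 51.8%, with the median of all genes at 0.03. Among the matrix chaperones the count was 0 with median-of-ratios size factors, limma-voom and the study's thresholds, and 2 with the length correction. Of the biogenesis genes 0 were called with the block, the length correction and the study's thresholds, and 2 with the GC correction. Library sizes alone called 1 of the further proteases, and the study's thresholds called 2 import genes.

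With 1 library left out, the estimate ran from 0.22 to 0.36 for *Clpp*, from 0.13 to 0.18 for *Dnaja3*, from -0.020 to 0.011 for *Hspd1* (positive at 0.0029, 0.0066 and 0.011), from 0.12 to 0.24 for *Hspe1*, from 0.10 to 0.25 for *Lonp1* and from -0.18 to -0.060 for *Yme1l1*. Counts ran from 1032 to 4233 over all genes (570 to 2150 higher, 462 to 2083 lower), from 1 to 5 of the 10 higher and 0 to 1 lower, from 0 to 4 matrix chaperones, from 0 to 4 further proteases higher and 0 to 1 lower, from 0 to 13 import genes, and from 0 to 3 biogenesis genes higher and 0 to 1 lower. The ratios kept their signs, but with 6 libraries the smallest exact p is 0.1 or 0.0667. The cause of these changes was not tested.

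Labels give both genotypes the replicate numbers 1 to 3, and the deviations of same-numbered libraries correlated at 0.0920, 0.0417 and 0.0746, so the numbers were not taken as a pairing. The replicate block called 1762 genes in place of 1897. WT replicate 1 correlated best with WDR6-WKO replicate 2 (0.180), not with its own number, while WT replicates 2 and 3 each correlated best with their own number.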
